A study of Mus musculus with 4 samples.

Results

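Genes of the acute phase and of innate defence were followed in single cells of mouse mammary tumours. They were the serum amyloid A genes Saa1, Saa2 and Saa3, the iron- and haem-handling genes Lcn2, Ltf, Hp and Cp, the genes of microbial and glycan recognition Lbp and Chil1, and Lrg1. The members were taken by symbol from the deposited gene table, 10 of 55472 genes, and all 10 were found. They were chosen with their levels in these cells and their co-detection already known, so differences of the 10 genes between cell classes and between each other are descriptions and no independent evidence. The samples were 4 tumour libraries from 3 female mice aged 13 to 14 weeks. Every mouse carried MMTV-PyMT, Rosa-tdTomato and K14Cre on an FVB background, and no library came from tumour-free tissue. The MMTV promoter drives the polyoma middle T oncogene in mammary epithelium, and a keratin 14 promoter drives the Cre that switches on the tdTomato reporter. For tumour 1, tumours of several glands of mouse 1 were combined, tumour 2 was an inguinal tumour of mouse 2, and tumours 3 and 4 were a thoracic and an inguinal tumour of mouse 3. With 1 library per tumour, the tumour and its library cannot be told apart.

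The acute phase is the change in secreted proteins that follows infection or injury. It is best known from the liver, where interleukin-1 and interleukin-6 type cytokines act through NF-kB, STAT3 and C/EBP factors, and epithelia such as the mammary gland make some of the same proteins. Serum amyloid A proteins are small lipid-binding proteins carried on lipoproteins. Lipocalin 2 binds bacterial iron carriers, lactoferrin (Ltf) binds iron itself, haptoglobin (Hp) binds free haemoglobin and ceruloplasmin (Cp) carries copper and oxidises iron. Lbp presents bacterial lipopolysaccharide to CD14, Chil1 is a chitinase-like lectin without chitinase activity, and Lrg1 is a leucine-rich glycoprotein known for its action on TGF-beta signalling in vessels.

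Saa1 (ENSMUSG00000074115, chr7:46740497-46742980, minus strand), Saa2 (ENSMUSG00000057465, chr7:46751790-46754313, plus strand) and Saa3 (ENSMUSG00000040026, chr7:46711998-46715700, minus strand) lie near each other in the GRCm38 assembly. Over 606 aligned bases the annotated transcripts of Saa1 and Saa2 were 94.4% identical, with a longest identical run of 76 bases, and their last 300 bases were 94.3% identical. Saa1 and Saa3 were 79.0% identical over 604 aligned bases and 59.0% over the last 300. The split of UMIs between Saa1 and Saa2 is therefore uncertain, because the authors' counting could assign or drop reads that fit both copies, and the pair was also taken as a sum below. The 250 bases before the RefSeq start of the 3 Saa genes and of Lcn2 are shown because these genes carry the contrast described below, a few cells with many Saa1 and Saa2 molecules among cells that nearly all held Lcn2. Capitals mark matches, on either strand, to the NF-kB pattern GGGNNNNNCC and the C/EBP pattern TTNNGNAA. The windows, in GRCm38.p6 from RefSeq, are chr7:46742981-46743230 (minus strand) for Saa1, chr7:46751583-46751832 (plus strand) for Saa2, chr7:46715677-46715926 (minus strand) for Saa3 and chr2:32387740-32387989 (minus strand) for Lcn2.
Saa1: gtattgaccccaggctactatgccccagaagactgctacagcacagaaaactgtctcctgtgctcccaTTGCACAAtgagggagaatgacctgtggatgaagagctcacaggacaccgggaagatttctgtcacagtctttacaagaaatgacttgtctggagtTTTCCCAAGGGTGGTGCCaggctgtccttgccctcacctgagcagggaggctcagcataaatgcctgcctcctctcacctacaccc
Saa2: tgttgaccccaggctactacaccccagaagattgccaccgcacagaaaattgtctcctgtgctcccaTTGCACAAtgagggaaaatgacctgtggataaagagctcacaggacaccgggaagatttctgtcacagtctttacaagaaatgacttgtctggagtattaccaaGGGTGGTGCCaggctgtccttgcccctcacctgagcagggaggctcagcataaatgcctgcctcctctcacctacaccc
Saa3: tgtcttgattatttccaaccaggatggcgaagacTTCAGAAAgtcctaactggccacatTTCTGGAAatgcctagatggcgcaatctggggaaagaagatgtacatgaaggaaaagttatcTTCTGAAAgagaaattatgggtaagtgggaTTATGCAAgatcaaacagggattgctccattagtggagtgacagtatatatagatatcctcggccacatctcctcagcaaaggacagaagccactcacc
Lcn2: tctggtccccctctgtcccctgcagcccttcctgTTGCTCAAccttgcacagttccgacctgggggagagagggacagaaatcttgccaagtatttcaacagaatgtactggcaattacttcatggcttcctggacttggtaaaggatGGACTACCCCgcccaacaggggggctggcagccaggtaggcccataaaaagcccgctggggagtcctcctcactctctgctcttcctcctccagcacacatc
The windows of Saa1 and Saa2 were 95.6% identical over 249 aligned bases, with a longest identical run of 65 bases. Both held 1 NF-kB match, which began 78 and 79 bases before the start. Saa1 held 2 C/EBP matches, the nearer of which adjoins its NF-kB match, and Saa2 held 1. Saa3 held 4 C/EBP matches and no NF-kB match, and Lcn2 held 1 of each. Of 32851 promoter windows of the same length, 45.8% held the NF-kB pattern and 36.8% the C/EBP pattern, so a match is common. Neither TTCNNNGAA, the core of STAT sites, nor TATAAA was found in these 4 windows, and 7.02% and 12.4% of all windows held them. Entries were found for 8 of the 10 genes, and none for Lbp and Hp.

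The libraries held 8434 to 9580 cell barcodes and 20281799 to 39370565 unique molecular identifiers (UMIs, 1 per captured RNA molecule), and 96 to 129 barcodes were shared between any 2 libraries. Epithelial cells were those with at least 3 UMIs of Krt8, Krt18 and Epcam together and at most 1 of C1qa, C1qb, Col3a1 and Cdh5. Macrophages had at least 5 UMIs of C1qa and C1qb, and fibroblasts at least 10 of Col1a1 and Col3a1. The gates, which are those of the rule that chose the genes, gave 4610, 8158, 4309 and 5845 epithelial cells, 745, 511, 1015 and 798 macrophages and 213, 193, 666 and 467 fibroblasts in tumours 1 to 4. A further 48 cells met more than 1 gate and were left out, 7954 barcodes fell in no class, and no doublet caller was run. The summed level, in CPM (UMIs of a gene per 1000000 UMIs of its class), of 8 luminal markers outside the gate was 1506 to 1630 in epithelial cells, 377 to 561 in macrophages and 224 to 351 in fibroblasts, and none of the 8 was at 0 in any of the 3 classes. The 7 macrophage markers summed to 8403 to 9864 CPM in macrophages and 30.1 to 59.7 in epithelial cells. The 6 fibroblast markers summed to 9120 to 10368 CPM in fibroblasts and 6.59 to 44.0 in epithelial cells.

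RNA released from other cells enters every droplet, so the level in cells that should lack a transcript was measured alongside. The 88, 35, 94 and 59 T cells of tumours 1 to 4 (at least 2 UMIs of Cd3d, Cd3e and Cd3g) held the 8 luminal markers at a median of 10.4 to 19.3% of the epithelial level. Of 7 macrophage markers these T cells held Tyrobp at 1001 to 1336 CPM, C1qc at 0 to 51.7, and Adgre1 and Fcgr1 at 0. The median for luminal markers was 23.8 to 36.5% in macrophages and 14.8 to 22.8% in fibroblasts. These shares are the level at which an epithelial transcript appeared in the other classes, and the members are read beside them. Counting intervals and limits cover counting error only.

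Saa1 and Saa2, which encode the liver's major acute-phase apolipoproteins, were found in a minority of epithelial cells of every tumour. The Saa1 level in epithelial cells was 471, 189, 700 and 779 CPM in tumours 1 to 4. Saa2 stood at 348, 88.7, 425 and 460 CPM. Both genes were lowest in tumour 2 and close in the 2 tumours of mouse 3, and over the 3 mice Saa1 averaged 468 CPM ± 277 (SD, n = 3). At least 1 UMI of Saa1 was found in 19.8% (95% exact binomial interval 18.6 to 21.0), 8.51% (7.91 to 9.13), 26.0% (24.7 to 27.4) and 29.6% (28.5 to 30.8) of epithelial cells. With every cell thinned to 1500 UMIs the shares were 16.03%, 5.14%, 18.2% and 21.7%, against 5.56%, 2.86%, 11.2% and 8.16% of T cells thinned alike. The epithelial share was thus above the T cell share in each tumour, by less than 2-fold in tumours 2 and 3, where 35 and 80 T cells were counted. Before thinning the median cell held 2493 to 3591 UMIs in epithelium and 1112 to 2071 among T cells.

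The Saa molecules were gathered in few cells. After thinning, the 1% of epithelial cells with the most UMIs held 38.0%, 75.9%, 37.5% and 33.4% of all Saa1 UMIs in tumours 1 to 4, and the highest cell of tumour 2 held 137 Saa1 UMIs of its 1500. The same share for Lcn2 was 4.67%, 4.67%, 5.63% and 4.43%. Ltf held 29.6 to 40.1% of its UMIs in the top 1% of cells, whereas Lbp and Cp, with fewer UMIs than Saa1 in every tumour, held 12.5 to 16.6% and 10.7 to 15.0%. Tumour 2, which had the lowest Saa1 level, had the highest concentration of it.

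Saa3, the serum amyloid A gene that is mostly made outside the liver, was sparse. Its epithelial level was 6.44, 6.05, 17.7 and 25.2 CPM, with UMIs in 1.11%, 1.14%, 1.74% and 2.60% of cells. In tumour 4 a single cell held 149 of the 561 Saa3 UMIs. The thinned share there, 1.38%, was below the 2.04% of T cells, but that was 1 of 49. T cells of tumours 2 and 3 held 0 Saa3 UMIs. Over the mice the thinned share averaged 0.775% in epithelial cells and 0.258% in T cells. So few T cells cannot set a background, and the share alone is not read as expression. The Saa3 level of fibroblasts was 13.7, 65.0, 6.58 and 14.7 CPM. The high value in tumour 2 rested on 1 cell with 32 of the 48 UMIs. In tumours 1 to 4 the fibroblast level of Saa3 was 213%, 1074%, 37.2% and 58.5% of the epithelial one. The highest luminal marker was at 30.1%, 46.4%, 33.9% and 27.5%, so Saa3 stood above it in every tumour. The counts were 6, 48, 14 and 20 UMIs.

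Lcn2, which encodes lipocalin 2 (chr2:32384633-32388252), was present in nearly every epithelial cell. Its level was 6943, 7189, 6193 and 8127 CPM, and 7129 ± 165 (SD, n = 3) over the mice, the narrowest relative spread of the 10 genes. UMIs were found in 98.6%, 99.5%, 98.3% and 99.5% of epithelial cells. T cells held Lcn2 at 1554, 684, 1190 and 1717 CPM, or 9.5 to 22.4% of the epithelial level, with UMIs in 38.6 to 62.7% of cells. Lcn2 in T cells was therefore about where the luminal markers were, and a UMI of Lcn2 in a non-epithelial cell is not read as expression.

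The other metal-binding genes were found in fewer epithelial cells. Ltf (chr9:111019271-111042767) was measured at 129, 118, 127 and 221 CPM, in 13.1%, 14.1%, 14.3% and 19.8% of cells, and tumour 4 stood above the other 3. Cp (chr3:19957054-20009145) was at 177, 147, 199 and 229 CPM, in 31.2%, 31.6%, 39.5% and 44.3% of cells. Hp (chr8:109575128-109579172) varied most between tumours, at 66.9, 3.37, 155 and 97.4 CPM, and was nearly missing in tumour 2, with UMIs in 0.662% of its 8158 epithelial cells. Tumour 2 was also the lowest for the 3 Saa genes, Ltf and Cp but not for Lcn2, Chil1, Lbp or Lrg1. In T cells Hp was at 0 in tumours 1 to 3, and 0 of 35 cells with a UMI in tumour 2 allows, at 3 counts, a share of up to 8.57%.

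Lbp (chr2:158306493-158332852), whose protein hands bacterial lipopolysaccharide to CD14, was even across the tumours at 85.0, 103, 89.2 and 115 CPM in epithelial cells. Chil1 (chr1:134182176-134190181) was at 231, 778, 848 and 906 CPM, with tumour 1 apart from the other 3. Lrg1 (chr17:56119678-56122001) was at 283, 590, 356 and 601 CPM, with tumours 2 and 4, both inguinal, above tumours 1 and 3. The thinned shares of cells with a UMI in tumours 1 to 4 were 12.1%, 14.2%, 11.9% and 15.6% for Lbp. They were 16.7%, 47.9%, 33.6% and 47.0% for Chil1, against 11.1 to 22.4% of T cells, whose Chil1 level was 15.1 to 66.0% of the epithelial one. They were 24.2%, 42.1%, 25.8% and 43.8% for Lrg1, against 5.71 to 18.4%. Chil1 and Lrg1 therefore followed the tumour more than Lbp did.

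**Figure D1:**
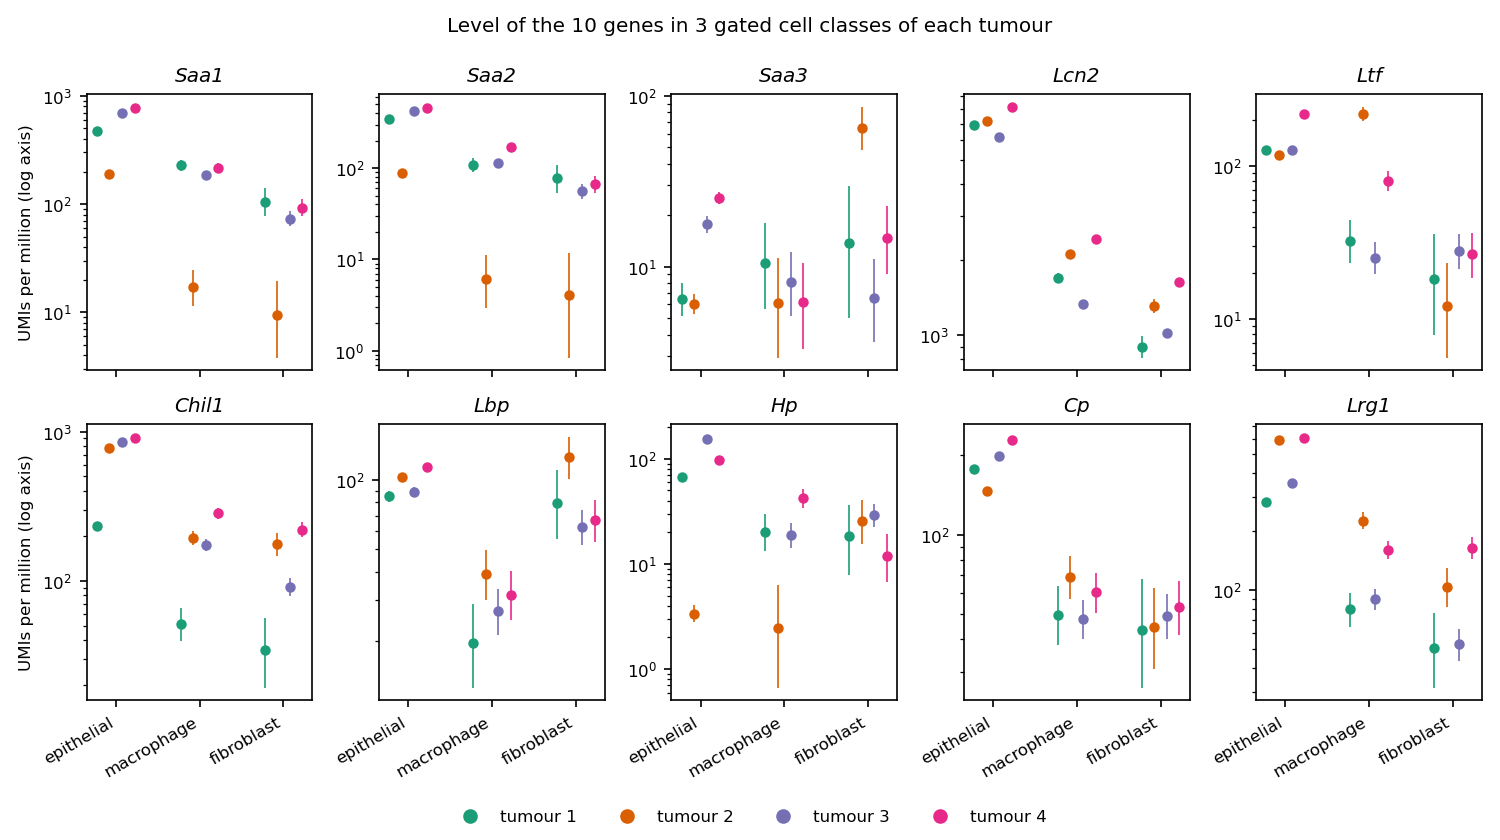
Level of each of the 10 genes (CPM, log axis) in epithelial cells, macrophages and fibroblasts of the 4 tumours; points are the summed level of a tumour and bars the 95% exact Poisson interval. Epithelial points lie highest for most genes, Lbp in fibroblasts (62.5 to 126) overlaps its epithelial range (85.0 to 115), and Saa1 is lowest in tumour 2 in all 3 classes.

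Outside the epithelium, most members were present at a share close to that of the luminal markers. In macrophages Lcn2 stood at 24.5%, 29.3%, 21.5% and 29.8% of the epithelial level of the same tumour, Lrg1 at 25.3 to 38.5%, Chil1 at 20.5 to 31.2%, Saa1 at 9.04 to 48.7%, Cp at 24.0 to 47.1% and Lbp at 22.9 to 37.8%. In counts summed per mouse (edgeR quasi-likelihood test with mouse as a block, Benjamini-Hochberg adjustment over 12634 genes), 8 of the 10 were higher in epithelial cells than in macrophages and 0 lower. Over all genes tested 20.1% were called higher and 21.1% lower, 41.2% in all, and since the rule used these classes nothing is read from the members' count. The median log2 fold change was 1.498 for the members, 1.47 for the 8 luminal markers and 0.06 for all genes. Lcn2 differed by 1.71 ± 0.11 (log2, SE), Saa1 by 1.72 ± 0.28 and Lrg1 by 1.501 ± 0.14. The call of Hp, 1.48 ± 0.55, ended with DESeq2, with another normalization (RLE size factors) and without mouse 1 or mouse 3. Without the mouse block the calls of Saa1, Saa2, Chil1 and Hp ended. Saa3 and Ltf were not called. Ltf in macrophages was at 32.5, 221, 25.1 and 80.7 CPM, and in tumour 2 a single cell held 268 of the 362 UMIs. Without mouse 2, the mouse of that cell, the log2 difference of Ltf rose from 0.56 to 1.68 and was called. Saa1 in macrophages was also uneven, with 253 of 528 UMIs in 1 cell of tumour 3 and 100 of 282 in 1 cell of tumour 1.

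Macrophages with no UMI of Krt8, Krt18 or Epcam were set against epithelial cells with no UMI of C1qa, C1qb, Col3a1 or Cdh5. These macrophages held less of most members than all macrophages did. In tumour 2 Saa2, Saa3 and Hp did not fall, at 6.11, 6.11 and 2.44 CPM in all macrophages. They were at 6.37, 7.97 and 4.78 CPM in those without keratin or Epcam UMIs, from 4, 5 and 3 UMIs. Lcn2 fell from 1699, 2108, 1331 and 2424 CPM in all macrophages to 460, 339, 298 and 545 CPM in these macrophages, while epithelial cells stayed at 6240 to 8109 CPM. The log2 difference of Lcn2 rose to 3.88, that of Saa1 to 3.72 and that of Lrg1 to 3.50. These differences were thus larger than against all macrophages. Ltf was 1.59 to 14.0 CPM in these macrophages and its log2 difference, 4.14, passed the test.

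Lbp in fibroblasts was the clearest departure among the 3 gated classes, since that of Saa3 rested on 6 to 48 UMIs in a tumour. It was at 79.9, 126, 62.5 and 67.0 CPM in fibroblasts, or 94.0%, 122%, 70.1% and 58.4% of the epithelial level, while luminal markers were at 14.8 to 22.8%. The ranges of the 2 classes overlapped, and the log2 difference of epithelial cells against fibroblasts was 0.25 ± 0.18 and did not pass the test. It was 0.58 and called without mouse 2, and -0.08 without mouse 3. Against macrophages fibroblasts were higher by 1.24 ± 0.21, in 3 of 3 mice. In fibroblasts without keratin or Epcam UMIs Lbp stayed at 80.4, 105, 62.8 and 66.7 CPM, whereas Lcn2 fell from 900, 1311, 1016 and 1627 to 217, 195, 286 and 394 CPM. No single fibroblast held more than 8.57% of the Lbp UMIs of its tumour.

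Against fibroblasts 7 of the 10 genes were higher in epithelial cells and 0 lower, where 22.7% of all 12634 genes tested were called higher and 23.3% lower, 46.1% in all. Saa1 differed by 3.16 ± 0.33 (log2, SE), Ltf by 2.78 ± 0.55 and Lcn2 by 2.68 ± 0.11. Saa3, Lbp and Hp did not pass. Without mouse 2 Hp was called higher at 2.38, and without mouse 3 Saa3 was called lower at -2.73. Hp of tumour 2 was at 25.7 CPM in fibroblasts and 3.37 CPM in epithelial cells, but 7 fibroblasts carried its 19 UMIs. Between fibroblasts and macrophages 1 member, Lbp, was higher and 7 were lower, where 19.1% and 21.9% of all genes were, 41.0% in all. That order again ran with the luminal markers, of which 7 of 8 were lower in fibroblasts. With the keratin-free gates the calls of Saa1, Saa2 and Cp ended and Cp turned to 0.14, and without mouse 3 the calls of Saa1, Saa2, Chil1 and Cp ended. The Cp call also ended without mouse 1 or mouse 2 and with DESeq2, and the Saa2 call with DESeq2.

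Lrg1 was above its epithelial level in endothelial cells of every tumour. The 29, 74, 140 and 109 endothelial cells of tumours 1 to 4 (at least 3 UMIs of Cdh5 and Pecam1) held Lrg1 at 809, 682, 686 and 663 CPM. That was 286%, 115%, 193% and 110% of the epithelial level, where luminal markers stood at 11.5 to 37.1%. UMIs of Lrg1 were found in 69.0%, 66.2%, 65.0% and 66.1% of endothelial cells, at a median depth of 1645 to 2559 UMIs. The excess was within the counting interval of the endothelial value in tumours 2 and 4 (574 to 803 and 578 to 756 CPM against 590 and 601). No other member was above its epithelial level in endothelial cells of any tumour. This class was not part of the fitted comparisons.

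**Figure D2:**
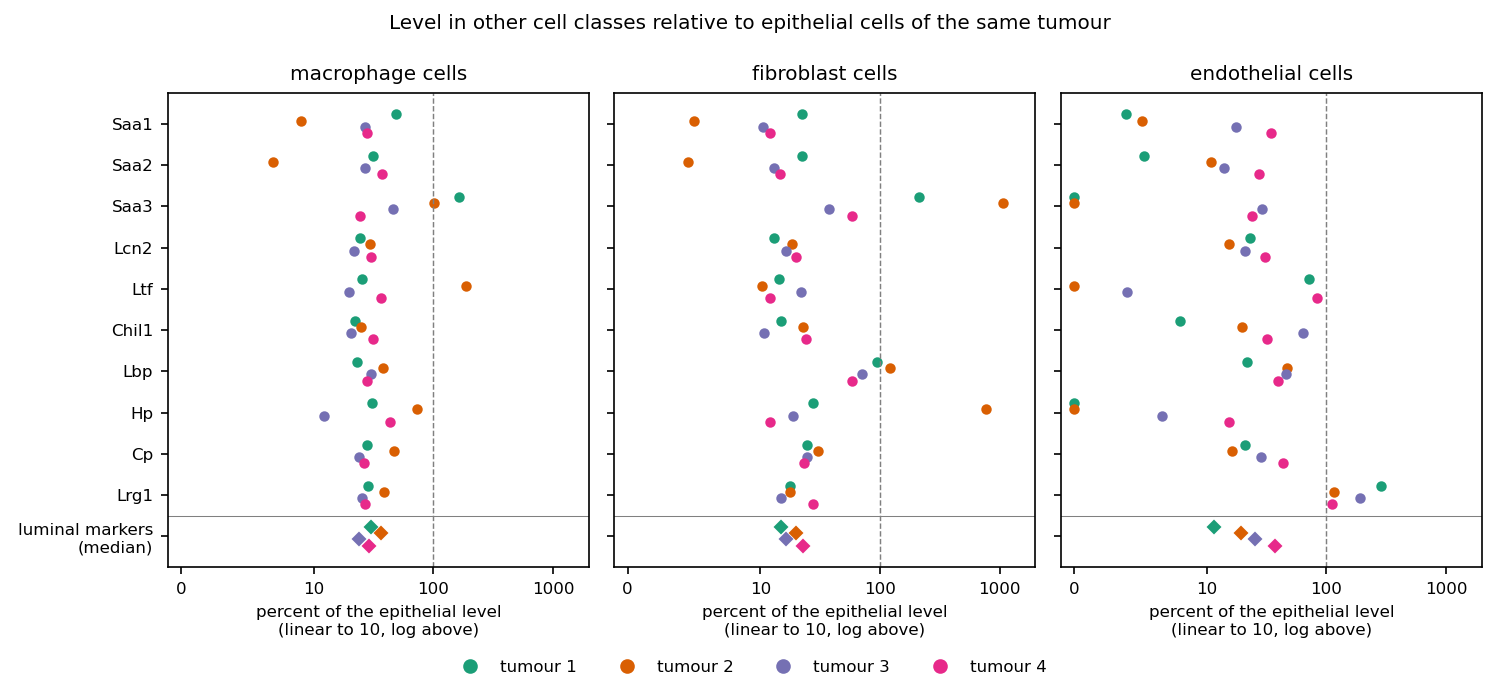
Level of each gene in macrophages, fibroblasts and endothelial cells as a percentage of the epithelial level of the same tumour (axis linear to 10, log above), with the median of 8 luminal markers as diamonds. Most points lie near the diamonds, and Lbp in fibroblasts (58.4 to 122%) and Lrg1 in endothelial cells (110 to 286%) lie to their right in every tumour. Saa3 in fibroblasts (37.2 to 1074%) does so too, from 6 to 48 UMIs in a tumour.

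S100a8 and S100a9 are carried by neutrophils, which store Lcn2, Ltf, Hp, Chil1 and Lrg1 proteins, so a neutrophil gate was tried. Only 10, 6, 18 and 16 barcodes had at least 5 UMIs of S100a8 and S100a9 and met no other gate. Of these 9, 5, 13 and 12 held UMIs of Krt8, Krt18 or Epcam, 5, 2, 10 and 9 held Saa1 or Saa2, and 0, 1, 4 and 4 held another neutrophil marker. They are not called neutrophils here and were used in no comparison.

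Within the epithelium most pairs of the 10 genes were seen together more often than their shares alone would give, but weakly. Of the 45 pairs 33 had at least 5 cells expected with both genes in every tumour, and the observed number exceeded the expected number in every tumour for 32 of them. Nothing is read from this count, because co-detection chose the genes and pairs of other genes were not counted alike. Lcn2 was found in 97.9% of thinned cells on average, so the ratios of its pairs could hardly exceed 1. For 1 pair, Saa1 with Saa2, the ratio was above 1.5 in every tumour, at 4.40, 11.6, 3.67 and 3.17. In tumours 1 to 4, 289, 128, 357 and 567 cells held both, against 65.7, 10.99, 97.3 and 179 expected, and the phi coefficient was 0.52, 0.41, 0.48 and 0.47. Because the 2 transcripts are near copies, reads of 1 gene counted as the other could add to this overlap, and that part was not tested. Phi was at least 0.1 in every tumour for 2 other pairs of the 33, Chil1 with Lrg1 (0.17, 0.15, 0.29 and 0.23) and Ltf with Cp (0.11, 0.16, 0.14 and 0.11). All other pairs of the 33 fell below 0.1 in at least 1 tumour. Saa2 with Saa3, which had too few expected cells for a ratio in 3 tumours, had phi of 0.11, 0.15, 0.15 and 0.12. Saa1 with Saa3, also without a ratio in every tumour, had phi of 0.07, 0.13, 0.13 and 0.12. Both were held by 12, 19, 26 and 50 cells, against 3.85, 2.31, 6.37 and 16.7 expected. Phi is capped where the shares of 2 genes differ much, so low values for pairs of Saa3 or Lcn2 say little. Phi values are descriptions over cells of 1 library, which share depth and free RNA.

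**Figure D3:**
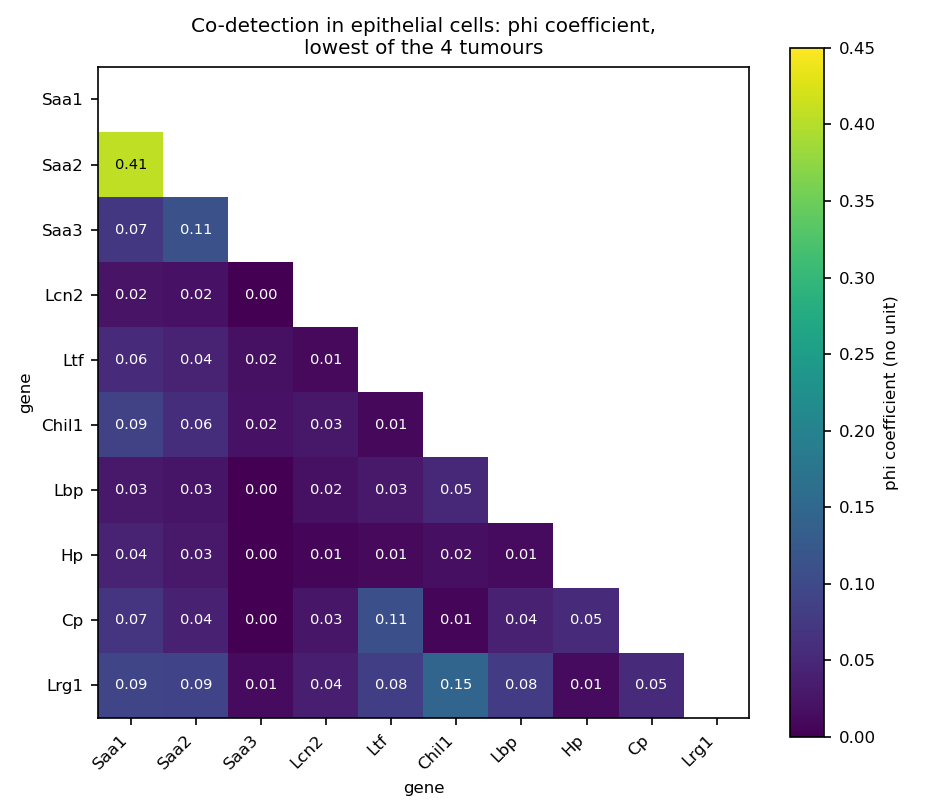
Phi coefficient of co-detection for each pair of the 10 genes in epithelial cells thinned to 1500 UMIs, as the lowest of the 4 tumours. Saa1 with Saa2 (0.41) stands apart, and Chil1 with Lrg1 (0.15), Saa2 with Saa3 (0.11) and Ltf with Cp (0.11) follow.

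The other genes whose detection was most like that of the members were taken from 4970 genes found in at least 2% of thinned epithelial cells of every tumour, by the phi of the tumour where it was lowest. Spp1, the gene of the secreted phosphoprotein osteopontin, ranked first for Saa1 (lowest phi 0.13), Lrg1 (0.15) and Chil1 (0.12). Slpi, a secreted protease inhibitor (0.16), Mfge8, a milk fat globule protein (0.15), and Spp1 (0.15) led for Cp. Clu (0.14) and Mfge8 (0.13) led for Ltf, and Tspan8 (0.11) followed Spp1 for Chil1. For Lrg1 the next were Igfbp5 (0.13) and Lalba (0.12), the gene of milk alpha-lactalbumin. For Saa2, Saa3, Lcn2, Lbp and Hp no gene reached 0.1 in every tumour. The low share of Saa3 and the high share of Lcn2 cap phi for these 2 genes.

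Grouping epithelial cells by their Saa1 and Saa2 UMIs showed what else such cells held. At 1500 UMIs per cell, 131, 60, 183 and 268 cells of tumours 1 to 4 had 10 or more Saa1 and Saa2 UMIs, 3.44%, 0.735%, 4.35% and 4.79% of the cells. The Lcn2 level rose over the groups with 0, 1 to 2, 3 to 9 and 10 or more such UMIs in every tumour, in tumour 1 from 6551 through 7673 and 9920 to 12784 CPM. In the highest group Lcn2 reached 12784, 15311, 13636 and 14458 CPM. Lrg1 went from 229, 601, 262 and 513 CPM in cells with none to 830, 1733, 1373 and 1443 CPM in the highest group, again in order in every tumour. Chil1 went from 192, 809, 783 and 811 to 595, 3878, 2750 and 2876 CPM, also in order in every tumour. Saa3 went from 2.38, 2.26, 1.84 and 4.20 to 112, 367, 186 and 418 CPM, although only 6.87 to 16.7% of these cells held a Saa3 UMI. Hp followed mainly in tumour 3, from 76.2 to 900 CPM. Ltf, Lbp and Cp were higher in the highest group than in cells with no Saa UMI in each tumour but not in order throughout.

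**Figure D4:**
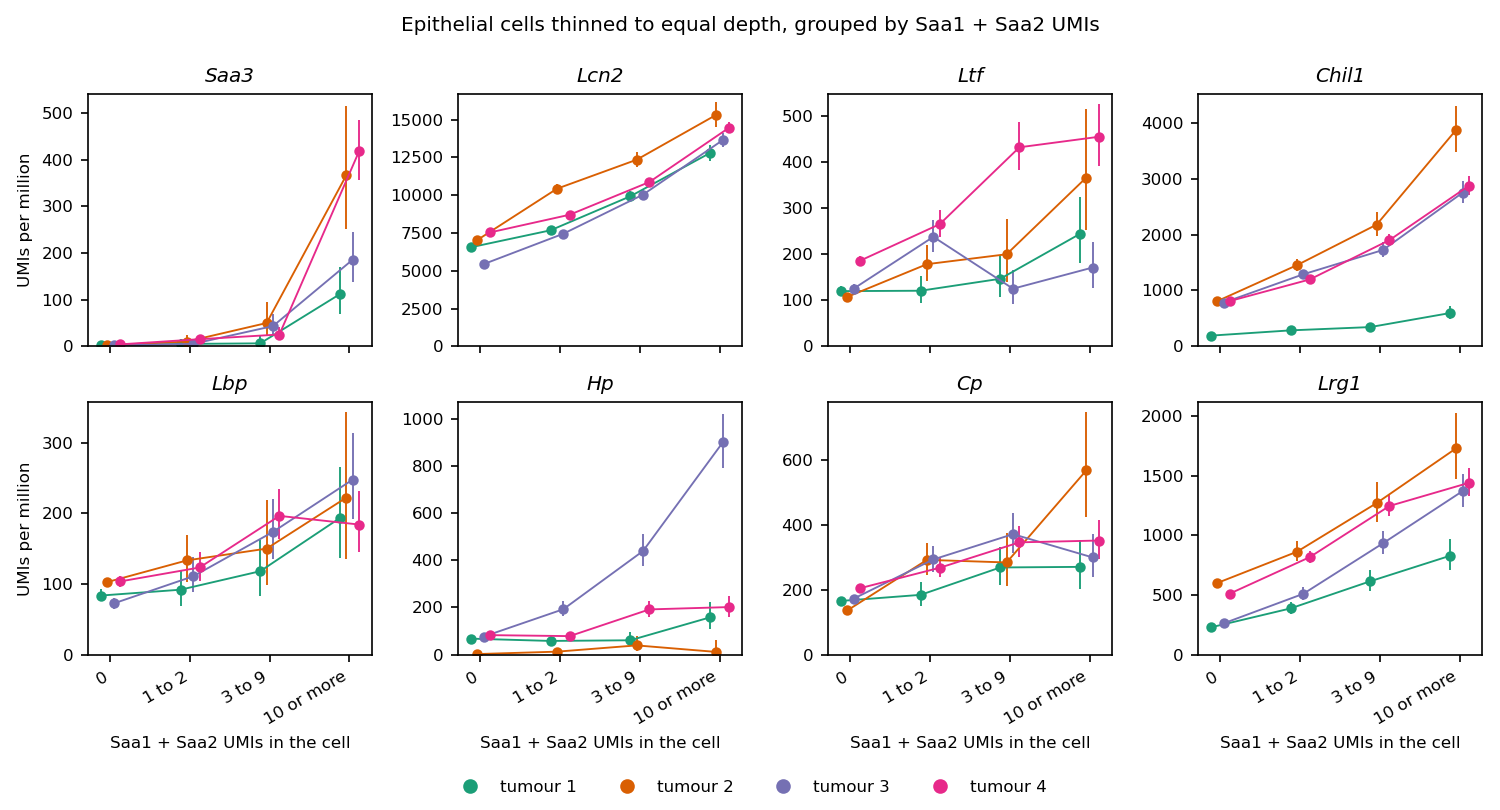
Level (CPM) of the 8 other genes in epithelial cells thinned to 1500 UMIs and grouped by the Saa1 and Saa2 UMIs of the cell; points are tumours and bars 95% exact Poisson intervals. Lcn2, Lrg1, Chil1 and Saa3 rise from group to group in all 4 tumours, and Hp rises steeply in tumour 3 (76.2 to 900).

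In sums per mouse of the cells with and without a Saa1 or Saa2 UMI, all 8 other members were higher in the cells with one. Over all 11694 genes tested 0.718% were called higher and 0.641% lower, 1.36% in all, and nothing is read from the members' count because co-detection chose them. The log2 fold changes were 4.49 ± 0.19 (SE) for Saa3, 1.21 ± 0.16 for Hp, 1.11 ± 0.08 for Lrg1, 1.10 ± 0.07 for Chil1, 0.80 ± 0.10 for Cp, 0.74 ± 0.09 for Ltf, 0.65 ± 0.09 for Lbp and 0.61 ± 0.05 for Lcn2. Each was higher in 3 of 3 mice, and the Hp call ended without mouse 3 and with DESeq2. Without the mouse block, which pairs the groups of the same animal, only Saa3 was called. The cells with a Saa UMI had a median of 3179, 3784, 3573 and 3219 UMIs before thinning, and those without 2750.5, 3441, 3657 and 3221. The groups thus differed in depth in tumours 1 and 2, before it was made equal, and hardly in tumours 3 and 4.

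Outside the 10 genes, Spp1 differed most upwards between the cells with and without Saa1 or Saa2 among the called genes that reached 50 CPM, and most of the milk genes tested were higher. Spp1 was at 3276, 8169, 6062 and 6334 CPM in these cells and 1528, 1426, 1754 and 2636 CPM in the others, without overlap, and differed by 1.70 ± 0.12 on the log2 scale (edgeR adjusted p = 1.03e-13, 3 of 3 mice). The protease inhibitor Slpi followed with 1.68 ± 0.18, at 319, 368, 626 and 450 against 187, 39.8, 202 and 199 CPM, although with DESeq2 its adjusted p was 0.654. Of 11 milk and alveolar genes 10 were tested and 7 were called higher, none lower, with a median of 0.46 beside -0.01 for all genes. Among them the milk proteins Wap (1.20 ± 0.09), Csn1s1 (1.20 ± 0.12) and Csn2 (3.28 ± 0.27) and the alveolar transcription factor Elf5 (0.39 ± 0.10) rose. Not all rises held in cells with 10 or more Saa UMIs, set against cells with none. In tumour 1 Wap was at 407 against 93.3 CPM and Elf5 at 81.4 against 62.1. Csn1s1 there was at 40.7 against 43.3 and Csn1s2a at 25.4 against 95.7. In tumour 2 Wap was at 556 against 56.9 CPM, Csn1s1 at 33.3 against 13.9 and Elf5 at 44.4 against 85.3. The Csn2 UMIs sat in few cells. In tumour 2, 44 of the 55 were in 2.5% of the 120 cells with 3 to 9 Saa UMIs, and the group with 10 or more held none. In tumour 3, 34 of the 37 were in 1.64% of the 183 cells with 10 or more. S100a8, the calprotectin subunit, rose by 1.16 ± 0.11, at 95.6, 103, 217 and 147 against 34.4, 40.8, 57.4 and 119 CPM. The 8 neutrophil markers together were at 100, 108, 248 and 199 against 37.9, 65.8, 80.9 and 170 CPM. In the cells with 10 or more Saa UMIs the neutrophil genes Csf3r, Cxcr2, Mmp9, Ly6g and Mmp8 were at 0 in all 4 tumours and S100a9 was at 0 to 12.4 CPM. These zeros cannot tell the groups apart. In tumour 2 a count of 0 there allows up to 41.0 CPM, and cells with no Saa UMI held these genes at 0.0871 to 0.174 CPM. Retnlg in tumour 2 was at 0 against 5.84 CPM, and S100a8 at 378 against 40.8 CPM.

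The lists of pathway genes are set against the 0.718% of all genes called higher and 0.641% called lower in this split. Of 29 upstream cytokines, receptors and regulators 19 were tested in this split, 2 were called higher and none lower, and their median was 0.18. The 2 were Cd14, the lipopolysaccharide co-receptor that receives its ligand from the Lbp protein (0.93 ± 0.10, edgeR adjusted p = 7.42e-09), and Osmr, the oncostatin M receptor (0.67 ± 0.14, adjusted p = 0.00314). Of 24 other acute-phase and complement genes 10 were tested and 3 rose, Steap4, Slc39a14 and C4b, by 0.86 ± 0.19, 0.86 ± 0.18 and 0.66 ± 0.13. Of 23 other innate defence genes 11 were tested and 3 rose, Slpi, S100a8 and Muc1. Among the remaining genes named by rule, Wfdc12 (1.29 ± 0.16), Fcgbp (1.14 ± 0.11), Prtn3 (0.94 ± 0.12) and Lipa (0.93 ± 0.10) rose. Wfdc12 did not separate the groups in tumour 4, where it stood at 57.9 CPM in cells with and 63.5 in cells without a Saa UMI, and with DESeq2 its adjusted p was 0.280.

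The genes lower in cells with Saa1 or Saa2 included the haemoglobin genes Hba-a1 and Hbb-bs, the secretoglobins Scgb1b27 and Scgb2b27, the salivary-type gene Smr2 and the arginase gene Arg1. Smr2 was at 34.6, 1.32, 7.07 and 3.17 against 146, 3.14, 8.17 and 3.72 CPM. Its fall was thus clear in tumour 1 only, and in tumour 2 the cells with Saa held 1 UMI. Arg1 fell by 0.88 ± 0.10 on the log2 scale (edgeR adjusted p = 9.90e-08), at 162, 34.3, 100 and 48.4 against 292, 44.4, 188 and 104 CPM, and kept its call in all 13 settings with the mouse block. Scgb2b27 fell by 0.88 ± 0.11, with 863, 1663, 332 and 501 against 2632, 2745, 454 and 652 CPM, and Scgb1b27 was lower in tumours 1 to 3 but higher in tumour 4 (199 against 127 CPM). Hba-a1 stood at 13.7, 1.32, 13.4 and 11.3 against 35.5, 72.9, 110 and 24.3 CPM, a gene of red cell RNA that can reach droplets of any class. Its log2 fold change ranged from -2.81 to 1.06 over these settings, and it was not called in 4 of them, among them both other thinnings. Of the 5 basal markers tested 1 was called, Krt17, which fell by 1.58 ± 0.25, and their median was 0.005. Krt14 was not called, at 23.7, 58.1, 126 and 101 CPM in cells with and 29.7, 36.0, 76.4 and 76.2 in cells without a Saa UMI. The summed basal markers were at 41.0, 67.3, 182 and 125 against 49.4, 63.5, 157 and 117 CPM, so the list as a whole was not lower. The summed macrophage markers were at 35.5, 29.0, 57.3 and 45.7 CPM in cells with and 37.0, 31.1, 69.1 and 44.6 in cells without a Saa UMI. In all, 159 genes were called, 84 of them higher. The count was 39 with DESeq2, of which all 39 were among the 159, 337 without mouse 1 and 85 without mouse 3, of which 147 and 67 were among the 159.

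Few epithelial cells had no Lcn2 UMI, and they differed from the rest in other genes. T cells thinned alike held a Lcn2 UMI in 50.8% ± 4.93 of cells (SD, n = 3). The group with Lcn2 may therefore include epithelial cells that made none, and the cells without it are not a count of such cells. At 1500 UMIs per cell 60, 145, 202 and 76 cells of tumours 1 to 4 held no Lcn2 UMI, against 3752, 8013, 4004 and 5520 with at least 1. In sums per mouse 8 of the 9 other members were higher in the cells with Lcn2, where 0.542% of all 10694 genes tested were called higher and 0.748% lower, 1.29% in all. Saa2 differed by 4.69 ± 0.34 (log2, SE), Saa1 by 4.54 ± 0.29, Lrg1 by 2.24 ± 0.21 and Hp by 2.03 ± 0.35. Saa1 was at 474, 190, 773 and 828 CPM in cells with Lcn2 and 0, 9.20, 33.0 and 70.2 CPM in cells without. Lrg1 was at 289, 638, 398 and 663 against 122, 189, 56.1 and 123 CPM, without overlap. Saa3 was not called, with 2 UMIs in all in the cells without Lcn2. Ltf was called at 0.81 ± 0.24 but was higher in cells without Lcn2 in tumour 1 (233 against 124 CPM), and its call ended under 5 of the 13 settings with the mouse block. The calls of Lbp and Hp ended with DESeq2 and without mouse 3, and that of Hp also without thinning.

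The cells without Lcn2 had more of the 4 basal markers tested. Fxyd2, a subunit of the sodium pump, was at 344, 27.6, 287 and 123 CPM in them and 2.84, 1.58, 6.83 and 4.95 CPM in the others, a log2 difference of -5.48 ± 0.28 (edgeR adjusted p = 1.23e-81, 3 of 3 mice). Cited1, a transcriptional co-regulator, was at 66.7, 18.4, 116 and 114 against 1.42, 0.998, 0.833 and 0.725 CPM, from 6, 4, 35 and 13 UMIs in the cells without Lcn2. The secretoglobin gene Scgb1b27, chosen after its values were seen, was at 10811, 2662, 1158 and 851 against 1628, 305, 126 and 136 CPM, a log2 difference of -2.79 ± 0.17. The 4 tested basal markers were all lower in cells with Lcn2, Krt14 by 1.22 ± 0.22 and Krt17 by 2.40 ± 0.29. The luminal keratins Krt19 and Krt7 were lower as well, by 1.55 ± 0.18 and 0.80 ± 0.22, and the other 6 of the 8 luminal markers did not pass. The summed basal markers were 267, 156, 508 and 447 CPM in the cells without Lcn2 against 44.2, 62.1, 146 and 115 CPM. The summed luminal markers were not lower there, at 2633, 1848, 1706 and 2272 against 1501, 1690, 1679 and 1697 CPM. They stood above the basal sum in every tumour, so these cells are not called basal. In tumours 3 and 4 the macrophage markers were also higher in cells without Lcn2 (162 and 87.7 against 61.6 and 44.3 CPM), in tumours 1 and 2 lower, and the haemoglobin gene Hba-a1 was at 1076 against 38.6 CPM in tumour 3. T cell markers were higher in cells without Lcn2 in tumours 2 to 4, at 27.6, 49.5 and 26.3 against 5.66, 13.2 and 7.37 CPM. In tumour 1 they were at 11.1 against 8.71 CPM, too close to read. In the cells without Lcn2, 1 UMI equals 11.1 CPM in tumour 1 and 8.77 CPM in tumour 4, so low values there rest on few molecules. Endothelial markers were higher in tumours 1, 2 and 4, at 22.2, 82.8 and 70.2 against 11.9, 14.7 and 23.7 CPM, and fibroblast markers in tumours 2 to 4, at 18.4, 112 and 70.2 against 7.65, 45.3 and 27.5 CPM. The part of RNA from other cells in the result was not tested. The median depth before thinning was 2365, 3210, 3521.5 and 2779.5 UMIs in cells without and 2837, 3462, 3641 and 3225.5 in cells with Lcn2.

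Of the genes higher in cells with Lcn2, Spp1 led again with 3.44 ± 0.20 (edgeR adjusted p = 1.66e-65), at 1885, 1875, 2846 and 3655 against 522, 101, 218 and 298 CPM. S100a8 (3.22 ± 0.41), Ecrg4 (2.58 ± 0.36), the whey acidic protein genes Wap (2.40 ± 0.33) and Wfdc3 (2.40 ± 0.35), and Cd14 (1.85 ± 0.31) followed. Clca3a2 (1.72 ± 0.28), the milk casein Csn3 (1.51 ± 0.17), Ramp1 (1.46 ± 0.31) and Mfge8 (1.42 ± 0.20) completed the genes named by rule. Of 9 tested milk and alveolar genes 3 were higher and none lower, Csn3, Wap and Lalba (1.19 ± 0.17). Pcp4, Ptn, Areg and Glul were lower, with log2 values of -5.22 ± 0.49, -3.78 ± 0.30, -3.37 ± 0.63 and -3.34 ± 0.36. Pcp4, Glul and Areg were at 0 in tumour 4 cells without Lcn2 and at 0.483, 5.07 and 1.33 CPM in those with it. The Areg call ended without mouse 1. Without mouse 3, which held 278 of the 483 cells without Lcn2, 47 genes were called in place of 138, and the calls of Wap, Wfdc3, Cd14 and Clca3a2 ended. DESeq2 called 64 genes, 63 of them among the 138.

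**Figure D5:**
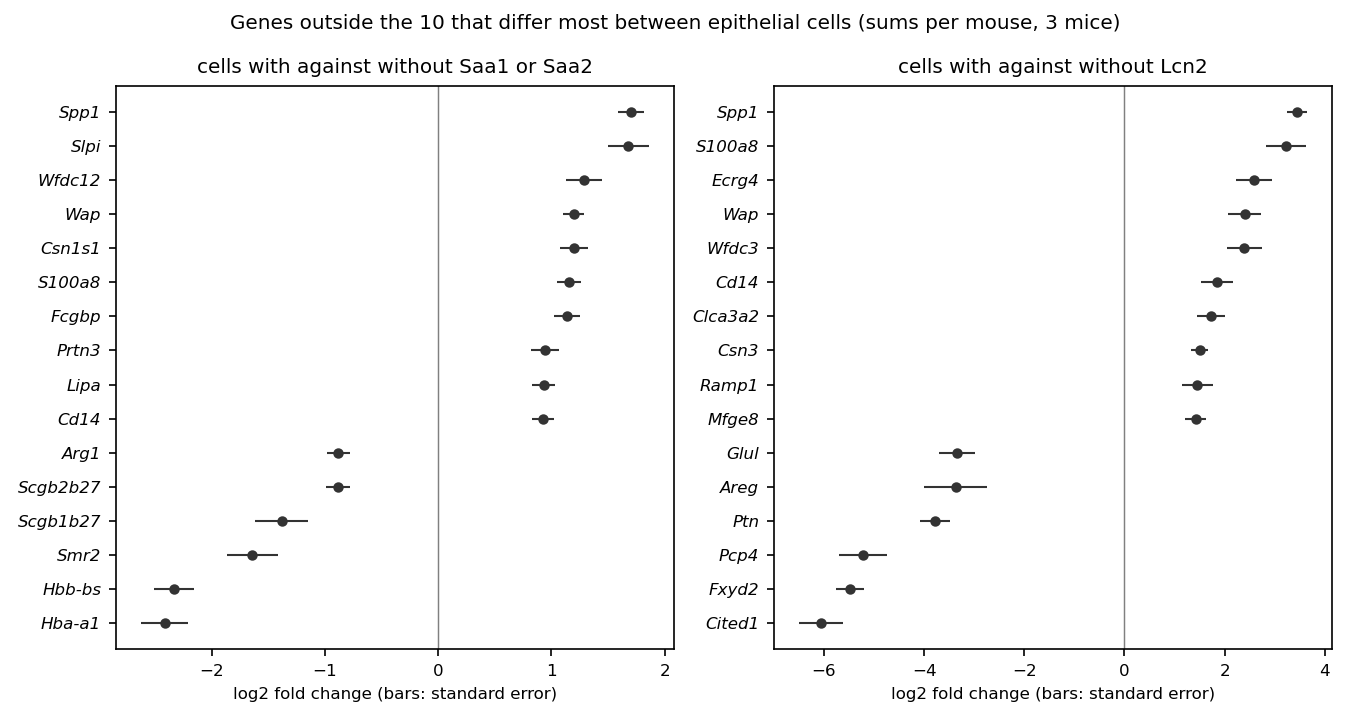
Log2 fold change (point) and standard error (bar) of the genes outside the 10 that were named by rule, in epithelial cells with against without Saa1 or Saa2 (left) and with against without Lcn2 (right), from sums of 3 mice. Spp1 is the highest in both (1.70 and 3.44), and Hba-a1 (-2.42) and Cited1 (-6.05) are the lowest.

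Of the 9 cytokines on the upstream list 5 were tested between epithelial cells and macrophages. Il1a, Il1b, Osm and Tnf were lower in epithelial cells, Lif differed by 0.06 ± 0.67 and was not called, and Il6, Il11, Il17a and Il22 were not tested. Of all 29 upstream genes, receptors and regulators included, 24 were tested, and 14 were lower and 5 higher in epithelial cells, where 21.1% of all genes were lower and 20.1% higher. Il1b, the interleukin-1 beta gene, was at 214 ± 45.3 CPM (SD, n = 3) in macrophages and 1.81 ± 1.13 in epithelial cells, a log2 difference of -7.09 ± 0.25. Osm, which encodes oncostatin M, was at 39.1 ± 11.1 against 0.137 ± 0.076 CPM and Tnf at 26.7 ± 3.73 against 3.73 ± 0.85 CPM. The oncostatin M receptor gene Osmr was higher in epithelial cells than in macrophages by 1.39 ± 0.19, and lower than in fibroblasts by 0.48 ± 0.17. Fibroblasts held Il1r1, the interleukin-1 receptor gene, at 46.2 ± 15.1 CPM against 1.09 ± 0.61 in epithelial cells, and Il6st, the shared interleukin-6 family receptor, at 76.3 ± 7.71 against 12.9 ± 2.66 CPM. Cd14 was at 67.4 ± 26.2 CPM in epithelial cells, 14.5 ± 10.6 in fibroblasts and 348 ± 50.8 in macrophages. Stat3, the transcription factor downstream of the interleukin-6 family, was higher in epithelial cells than in either class, by 0.59 ± 0.13 and 0.67 ± 0.14.

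Of 24 other acute-phase and complement genes 13 were tested. Against fibroblasts 2 were higher in epithelial cells and 9 lower, where 22.7% and 23.3% of all genes were, with a median of -1.58 beside 0.07 for all genes. The serpin gene Serpina3n was at 406 ± 281 CPM in fibroblasts and 1.62 ± 0.19 in epithelial cells, and the complement gene C3 at 158 ± 100 against 10.8 ± 7.54 CPM. Against macrophages 2 were higher and 5 lower. Of 23 other innate defence genes 15 were tested, and 7 were higher and 5 lower in epithelial cells than in macrophages, 7 higher and 3 lower than in fibroblasts. The whey acidic protein family gene Wfdc18 was at 20718 ± 9550 CPM in epithelial cells and 5995 ± 2581 in macrophages, and Pglyrp1, a peptidoglycan-binding protein gene, was at 117 ± 22.2 against 28.6 ± 7.79 in fibroblasts. The lectin gene Reg3g was at 37.9 ± 23.4 CPM in fibroblasts and 0.059 ± 0.078 in epithelial cells. Of 9 receptors of the members 4 were tested. Slc22a17, which encodes a lipocalin 2 receptor, was higher in epithelial cells than in macrophages by 1.65 ± 0.26, while Lrp1 and Eng were lower, and against fibroblasts Scarb1 was higher and Lrp1 and Eng lower.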

How the data were processed

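Single-cell RNA of 4 tumours was sequenced from droplet libraries, and the deposited files hold un-normalized UMI counts, which the authors made with Cell Ranger 2.2.0 on mm10/GRCm38 and read quality control with FastQC, per the submitters' processing notes. The 10 genes, the gates and the gene lists were chosen with earlier results of these data known. Counts were read with Python 3.11.15 (numpy 2.4.6, scipy 1.17.1, pandas 2.3.3), and cells were gated and, for shares, splits and co-detection, thinned to 1500 UMIs. Tumours 3 and 4 were summed as mouse 3, since cells are not replicates, and groups from the same animal were paired by a mouse block. Sums of 3 mice were tested with edgeR 4.0.16 (R 4.3.3, quasi-likelihood test, Benjamini-Hochberg adjustment over all genes, calls at 0.05), with DESeq2 1.42.0 as an alternative. The genes that gated or split the cells were left out of counts of calls. The scripts were tested on simulated data. Of simulated 2-fold and 0.5-fold changes, 38% and 22% were recovered in the split by Saa1 and Saa2. In the split by Lcn2 10% and 2% were, and 58% of 4-fold changes. A gene not called in a split may therefore still differ. In each split the text names, outside the 10 genes, the 10 highest and 6 lowest log2 fold changes among genes called, moving alike in 3 of 3 mice and reaching 50 CPM in the higher group, and for each list up to 6 of the largest called changes and its most abundant gene. Saa sequences were aligned with Biopython 1.88. Shares carry 95% exact binomial intervals, and sums exact Poisson intervals.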

Additional observations from a re-analysis of the deposited data

Results flagged for a closer look

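Among 30 combinations of gene and cell class, each with 4 tumours, 2 had a tumour far from the other 3 by Dixon's criterion, and chance gives about 1 in 20. Ltf in epithelial cells was 221 CPM in tumour 4 against 118 to 129 CPM in the others. Saa3 in fibroblasts was 65.0 CPM in tumour 2 against 6.58 to 14.7 CPM, where 1 cell held 32 of the 48 UMIs.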

How the results depend on the processing

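The 5203, 5820 and 5182 genes called between epithelial cells and macrophages, epithelial cells and fibroblasts, and fibroblasts and macrophages ranged from 3138 to 5355, 3438 to 5933 and 2950 to 5163 when a mouse was left out, lowest without mouse 3 each time. The other alternatives stayed within 1.5 times. The split by Saa1 and Saa2 called 159 genes, 39 with DESeq2, 1 without the replicate block, 82 at 1000 UMIs per cell, 302 without thinning and 85 to 337 with a mouse left out. Of its calls 52.8% were higher, against 74.4% with DESeq2, 67.1% at 1000 UMIs and 36.5% without the filter on low counts. The split by Lcn2 called 138 genes, 64 with DESeq2, 8 without the replicate block and 47 to 161 with a mouse left out. Without the low-count filter the median of all genes moved to 0.44 against macrophages and 0.53 against fibroblasts on the log2 scale.

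Of the members, Saa3 against macrophages ranged from -0.59 to 0.77 with a mouse left out. Against fibroblasts Lbp ranged from -0.083 to 0.58, Saa3 from -2.73 to 0.81 and Hp from -0.19 to 2.38. Between fibroblasts and macrophages Saa3 ranged from -0.036 to 2.14 and Hp from -0.64 to 1.34, Hp was 1.10 with DESeq2 and Cp was 0.14 with the keratin-free gates. Saa3 in the split by Lcn2 was -0.21 at 1000 UMIs. The cause was not tested. Mean shares of epithelial cells with a UMI moved with depth by construction, for Lcn2 to 95.6% at 1000 UMIs and 99.0% unthinned, for Ltf to 7.57% and 14.9%, for Lbp to 9.07% and 26.5%, for Cp to 14.5% and 35.0%, and unthinned for Saa3 to 1.49% and for Lrg1 to 48.4%. Of 98 co-detection values under alternatives 76 moved by less than the spread between mice.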
